A study of Mus musculus with 8 samples.

Results

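The transcripts of 9 complement components and regulators, *C3*, *C4b*, *C2*, *Cfb*, *Cfd*, *Serping1*, *C1ra*, *C1s1* and *Cd55*, were followed by RNA-seq in C3H10T1/2, a line of mesenchymal stem cells from the mouse. All 9 were found by symbol among the 18605 genes of the count table. They were chosen by name, with their values in these same libraries already known, so the comparisons of these genes are descriptions of the libraries and not independent tests. The cells carried either a non-target control (NC) or a lentiviral shRNA against *Nap1l2* (KD-Nap1l2). RNA was taken from both at day 0 and at day 7 of osteogenic induction, in a medium with dexamethasone, ascorbic acid and β-glycerol phosphate (NC-7d and KD-Nap1l2-7d). Each of the 4 groups had 2 libraries, with total counts from 17420284 to 19427359. All came from a single cell line, and which of the tested shRNA sequences was used for these libraries is not given in the sources used here. Nothing in the labels says that the libraries of a group are separate cultures, so their spread, and every p-value built on it, may be technical.

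Complement is a set of plasma and membrane proteins that tags microbes and damaged cells, calls in leukocytes and can lyse membranes. In the classical pathway, C1q recruits the proteases C1r and C1s, which cleave C4 and C2 into a convertase. In the alternative pathway, factor B is cleaved by factor D to form a second kind of convertase, and both convertases cleave C3, on which all routes meet. Most circulating complement is made by the liver, but fibroblasts, adipocytes and macrophages also make parts of it, and interferons and inflammatory cytokines are known to raise several of its genes.

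*Nap1l2*, the targeted gene, had 3 and 3 counts in NC against 2 and 7 in KD-Nap1l2, and 15 and 5 in NC-7d against 7 and 13 in KD-Nap1l2-7d. Lower *Nap1l2* was therefore not detectable at this depth, so KD-Nap1l2 and KD-Nap1l2-7d below mean the libraries labelled so. The paper reports the knockdown in this cell line by western blot and qPCR, without saying whether those were the cells sequenced. The mesenchymal markers summed to between 4899 and 10800 FPKM (fragments per kilobase of transcript, scaled to library depth) in every library, all 9 of 9 tested. In contrast, the 4 hepatocyte markers found summed to at most 0.20 FPKM, and *Alb* was among those at or near 0. The 8 macrophage markers found summed to between 2.93 and 9.43 FPKM, mostly from *Cd68*, while *Ptprc* never passed 4 counts and *C1qa*, *C1qb* and *C1qc* never passed 2. In these bulk samples, fewer cells that express a gene and less RNA per cell cannot be told apart.

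The promoters of the 3 most abundant members are shown first, because these genes stood far above the other 6 in level. Promoter windows from 250 bases before to 50 bases after the start, from RefSeq on GRCm38.p6, matched 5 of the 9 members (*C3*, *Cfd*, *C1ra*, *C1s1* and *Cd55*). Capitals mark matches to the motifs searched. The first lies at chr17:57228087-57228386 on the minus strand, the second at chr6:124512371-124512670 on the plus strand and the last at chr6:124542310-124542609 on the minus strand.
C3: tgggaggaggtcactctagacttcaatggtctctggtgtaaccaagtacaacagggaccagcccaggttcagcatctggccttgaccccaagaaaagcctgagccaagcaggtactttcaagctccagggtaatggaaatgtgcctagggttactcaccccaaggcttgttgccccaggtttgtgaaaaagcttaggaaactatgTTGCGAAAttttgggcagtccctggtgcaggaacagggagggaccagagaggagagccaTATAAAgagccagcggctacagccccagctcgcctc
C1ra: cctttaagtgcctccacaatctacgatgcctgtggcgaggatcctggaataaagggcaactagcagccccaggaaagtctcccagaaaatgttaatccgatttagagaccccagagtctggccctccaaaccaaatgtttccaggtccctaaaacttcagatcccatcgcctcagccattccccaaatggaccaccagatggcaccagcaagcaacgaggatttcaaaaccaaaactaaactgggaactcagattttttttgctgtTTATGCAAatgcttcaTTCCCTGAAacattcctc
C1s1: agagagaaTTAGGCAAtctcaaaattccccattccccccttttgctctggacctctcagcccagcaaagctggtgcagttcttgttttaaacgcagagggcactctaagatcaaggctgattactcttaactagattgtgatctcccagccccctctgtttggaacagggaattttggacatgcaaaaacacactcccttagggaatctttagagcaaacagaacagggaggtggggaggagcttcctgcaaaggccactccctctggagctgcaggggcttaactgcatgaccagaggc
The motifs searched on both strands were the interferon-stimulated response element ISRE (GAAA, 2 bases of any kind, GAAA), the interferon-gamma activated site GAS (TTCNNNGAA), the NF-κB site and the C/EBP site (TTGCNNAA), and TATAAA was searched on the gene's strand. Of all 32851 windows, 3.4% held the ISRE, 8.3% the GAS, 4.5% the NF-κB site, 10.8% the C/EBP site and 8.3% the TATAAA. *C3* had a C/EBP match at position -45 and TATAAA at position 15, counted from the start that RefSeq gives, so its TATA lies behind that start. *C1ra* had a C/EBP match at position 17 and a GAS match at position 33, which do not overlap. *C1s1* had a C/EBP match at position -242, and a second window of *C1s1* as well as those of *Cfd* and *Cd55* had none of the 5 motifs. A match is only a run of letters, and a window without one says only that these letters are not in it.

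*C3*, the component on which all pathways meet, was one of the most abundant transcripts of these cells. On the scale per length its level averaged 676.2 FPKM over the 8 libraries and ranked between 44 and 192 of all genes in a library. The proteases of the C1 complex followed, *C1s1* with a mean of 177.4 FPKM and *C1ra* with 139.6 FPKM. *C4b* averaged 10.8 FPKM, *Cfb* 3.55 FPKM and *Serping1*, the C1 inhibitor, 1.36 FPKM. *Cd55*, a membrane protein that speeds the decay of the convertases, averaged 0.568 FPKM, above *Cfd* with 0.146 FPKM and *C2* with 0.136 FPKM. In each of the 8 libraries *C3* lay above every other member, whereas *C1s1* and *C1ra* overlapped in range, *C1s1* running from 123 to 238 FPKM and *C1ra* from 94.2 to 249 FPKM.

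**Figure D1:**
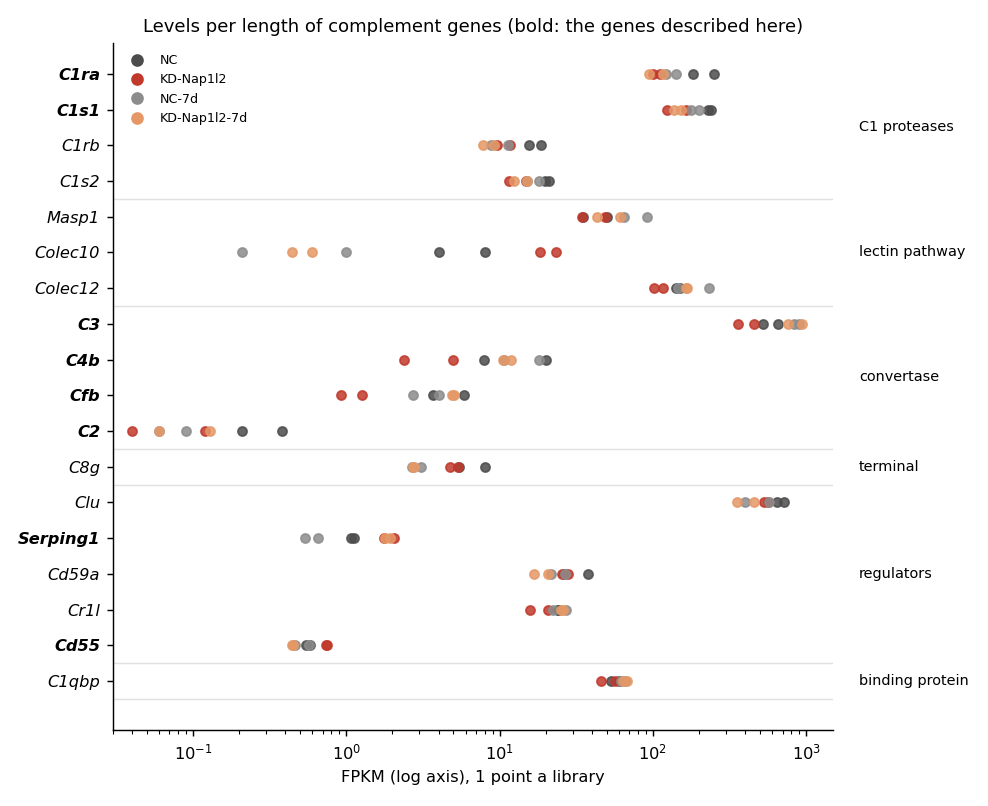
FPKM on a log axis for 8 of the 9 complement genes described here (bold) and 10 other complement genes, grouped by role, with 1 point for each of the 8 libraries coloured by group. *C3* sits furthest right among the 8, with a mean of 676.2 FPKM, and *C2* furthest left with 0.136 FPKM; *Cfd* is not drawn because 4 libraries are at 0.

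Among the complement genes that are not members, 46 of 53 were in the table and 21 passed the filter on low counts. Much of the plasma cascade had almost no reads. None of the C1q chains passed 2 counts in any library, and *Hc*, the gene of C5, never passed 4. Of the 6 terminal component genes in the table, only *C8g*, which encodes the lipocalin-like chain of C8, was tested. The most abundant of the others were *Clu* (clusterin, a chaperone that blocks membrane attack) with a mean of 529.1 FPKM, *Colec12* (a scavenger receptor of the collectin family) with 152.4 FPKM and *C1qbp* (a mitochondrial protein that binds C1q) with 59.3 FPKM. They were followed by *Masp1*, a protease of the lectin pathway, with 53.7 FPKM, *Cd59a*, which blocks membrane attack, with 25.4 FPKM, *Cr1l*, a membrane cofactor, with 23.1 FPKM, and *C1s2*, a copy of *C1s1*, with 16.0 FPKM.

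Before induction, 6 of the 8 tested members were lower in both libraries labelled KD-Nap1l2 than in both NC libraries, and *Serping1* and *Cd55* were higher in both, *Cd55* by as little as 3.53 against 3.51 CPM. The alternative pathway gene *Cfb*, the classical pathway genes *C4b* and *C2* and the C1 proteases all lay on the lower side. Groups without overlap were common in this comparison, at 43.2% of all 13470 genes tested. No member passed an adjusted p-value of 0.05 in edgeR's quasi-likelihood test, where 0.0817% of all genes did, while 7 of the 8, and 1852 of all genes, had an unadjusted p-value under 0.05. DESeq2 called 4 of them (*C1ra*, *C1s1*, *C4b* and *Cfb*) and 460 of all genes. limma on log2(FPKM + 1) called 0 members and 22 of all genes, with unadjusted p under 0.05 in 6 members and 1772 of all genes. The median log2 fold change of the 8 was -0.86, against 0.01 over all genes tested. *C2* entered the test only through its NC counts, so its lower value was fixed by the filter, and without it 5 of 7 were lower, the median was -0.69 and 6 had an unadjusted p under 0.05. Of the 21 other complement genes, 10 were lower and 3 higher without overlap. edgeR called 0 of the 21, with 5 at an unadjusted p-value under 0.05, DESeq2 called 1 and limma 0, and their median log2 fold change was -0.31.

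*Cfb* encodes factor B, the protease that joins C3b in the alternative pathway convertase, and lies on chromosome 17 (34856374 to 34862514, minus strand, GRCm38.p6). Its level was 10.3 and 16.1 CPM (counts scaled to library depth by TMM) in NC and 3.32 and 2.68 CPM in KD-Nap1l2. After induction it was 11.3 and 7.30 CPM in NC-7d and 13.3 and 14.0 CPM in KD-Nap1l2-7d. The KD-Nap1l2 libraries were thus the lowest pair of the 8, and the KD-Nap1l2-7d libraries lay above both NC-7d libraries and within the range of NC. Against NC, KD-Nap1l2 was lower with a log2 fold change of -2.13 (SE 0.31, adjusted p = 0.0646, edgeR). Over the alternatives this adjusted p ran from 6.29e-07, with DESeq2, to 0.330. After 7 days, the log2 difference between KD-Nap1l2-7d and NC-7d was 0.56 (SE 0.29, adjusted p = 0.696, edgeR). The estimated counts of *Cfb* moved between annotated transcripts from library to library, with NM_008198.2 taking 100% in both NC libraries and 0% in both KD-Nap1l2 libraries, and 100% and 0% in the KD-Nap1l2-7d libraries. This split differed between libraries of the same group, so only the sum over the gene is used here.

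*C4b*, which supplies the C4 part of the classical convertase, lies on the same chromosome (34728139 to 34743902, minus strand). It was measured at 43.6 and 109 CPM in NC, 25.8 and 13.6 CPM in KD-Nap1l2, 100 and 56.6 CPM in NC-7d and 56.8 and 64.9 CPM in KD-Nap1l2-7d. As with *Cfb*, the KD-Nap1l2 pair was the lowest, but replicates were far apart, by 2.5-fold in NC and 1.9-fold in KD-Nap1l2. The log2 fold change of KD-Nap1l2 against NC was -1.95 (SE 0.48, adjusted p = 0.152, edgeR). It ran from -2.49 to -1.14 when each library was left out in turn. After 7 days the groups overlapped, with a log2 fold change of -0.36 (SE 0.46, adjusted p = 0.912, edgeR). *C4a*, the near-identical neighbour, took 2.52% to 14.5% of the counts of both copies, so reads can be split between them.

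*C2*, the protease part of the classical convertase, is transcribed 87 bases upstream of *Cfb* (34862602 to 34882100, minus strand). It had 19 and 11 counts in NC, 2 and 6 in KD-Nap1l2, 4 and 3 in NC-7d and 3 and 6 in KD-Nap1l2-7d. NC alone reached 10 counts, so *C2* passed the filter only through the group in which it was high, and a difference from NC was built in. Its fitted log2 fold change of KD-Nap1l2 against NC, -1.80 (SE 0.68), and that of KD-Nap1l2-7d against NC-7d, 0.37, rest on these few counts. *Cfd*, the gene of factor D, which cleaves factor B (chromosome 10, 79890853 to 79892655, plus strand), was at 0 and 4 counts in NC, 0 and 0 in KD-Nap1l2, 8 and 0 in NC-7d and 3 and 4 in KD-Nap1l2-7d. It was not tested, and no order of the groups can be read at this depth, where a count of 0 allows 3 counts, or 0.154 to 0.172 CPM.

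*C3* itself (chromosome 17, 57203967 to 57228136, minus strand) was at 2395 and 3046 CPM in NC and 1957 and 1706 CPM in KD-Nap1l2. After induction, it was at 3922 and 4047 CPM in NC-7d and 4362 and 3462 CPM in KD-Nap1l2-7d. The groups were ordered KD-Nap1l2, NC and then both 7-day groups, which overlapped each other. Before induction the means were 2721 ± 460.0 CPM in NC and 1831 ± 178 CPM in KD-Nap1l2 (SD, n = 2), a log2 fold change of -0.57 (SE 0.19, adjusted p = 0.243, edgeR). After induction they were 3984 ± 88.5 and 3912 ± 637 CPM (SD, n = 2), and the log2 fold change was -0.03 (SE 0.19, adjusted p = 0.987, edgeR). The transcript NM_009778.3 took 81.9% to 87.0% of the *C3* counts, and XM_011246258.1 took the rest.

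**Figure D2:**
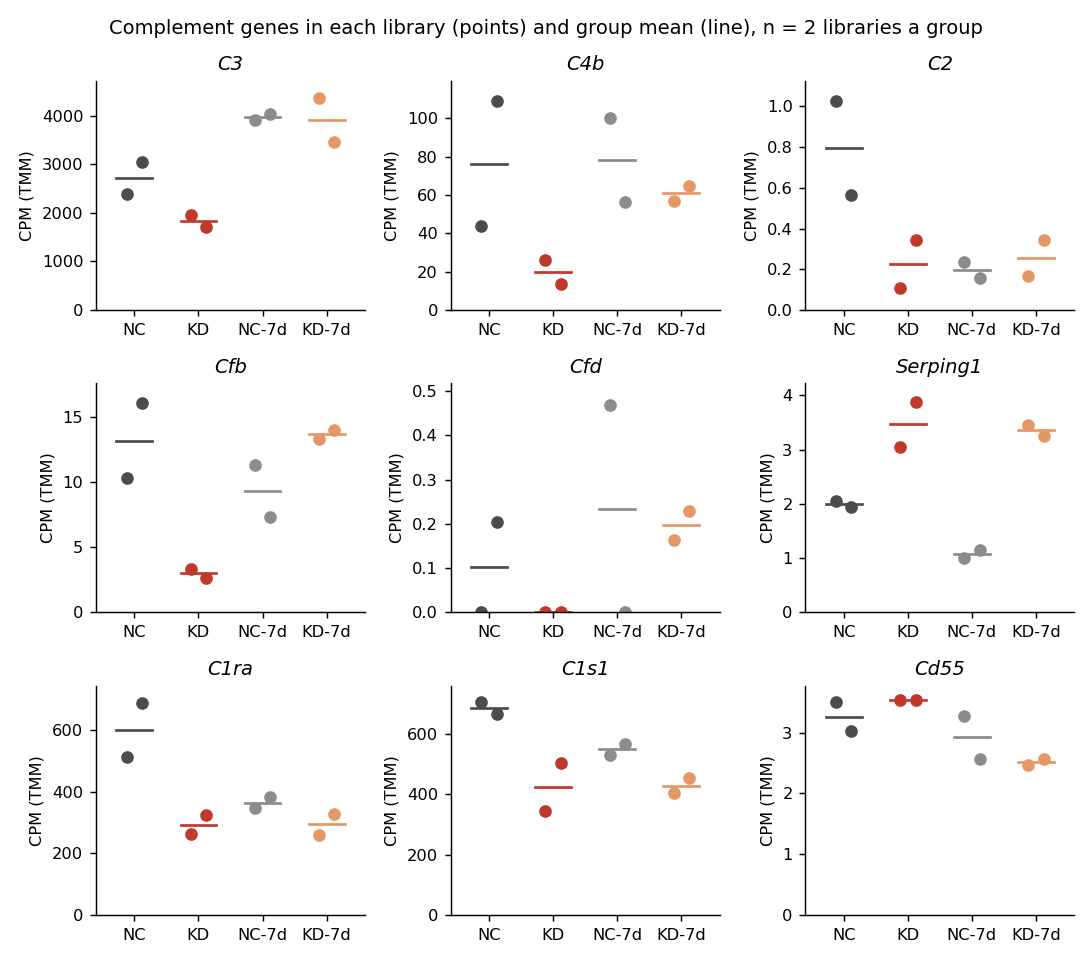
TMM-scaled CPM of the 9 genes in each of the 8 libraries (points; KD stands for KD-Nap1l2) with the group mean as a line, each panel on its own linear axis from 0. In the *Cfb*, *C4b* and *C3* panels the KD-Nap1l2 points are the lowest, *Cfb* at 3.32 and 2.68 CPM, and in the *Serping1* panel both groups with the shRNA label lie above both NC groups.

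*C1ra* and *C1s1* encode the proteases that C1q activates. They lie on chromosome 6 (124512621 to 124523440, plus strand, and 124530344 to 124542392, minus strand), with 6903 bases between them. *C1ra* was at 510 and 686 CPM in NC, 263 and 323 CPM in KD-Nap1l2, 346 and 382 CPM in NC-7d and 260 and 327 CPM in KD-Nap1l2-7d. For *C1s1* the values were 704 and 665 CPM in NC, 344 and 504 CPM in KD-Nap1l2, 530 and 568 CPM in NC-7d and 403 and 453 CPM in KD-Nap1l2-7d. NC was highest in both genes, NC-7d came next, and both shRNA-labelled groups were lowest and overlapped each other. The log2 fold change of KD-Nap1l2 against NC was -1.03 for *C1ra* (SE 0.20, adjusted p = 0.10, edgeR) and -0.69 for *C1s1* (SE 0.19, adjusted p = 0.177, edgeR). After 7 days the values against NC-7d were -0.31 (SE 0.20) and -0.36 (SE 0.19), with adjusted p-values of 0.765 and 0.705 from edgeR, and the groups still did not overlap. Their near-identical copies took a small part of the reads, *C1rb* 5.33% to 8.35% of the counts of *C1ra* and *C1rb*, and *C1s2* 7.09% to 8.37% of those of *C1s1* and *C1s2*. Against NC, these copies were lower in KD-Nap1l2 by log2 fold changes of -0.69 (*C1rb*, SE 0.17) and -0.62 (*C1s2*, SE 0.19), with adjusted p-values of 0.152 and 0.210 from edgeR.

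*Serping1*, which inactivates C1r and C1s, was higher in KD-Nap1l2 than in NC and in KD-Nap1l2-7d than in NC-7d, where the proteases it inhibits were lower (chromosome 2, 84765360 to 84775444, minus strand). It was at 2.05 and 1.95 CPM in NC and 3.06 and 3.88 CPM in KD-Nap1l2, and at 0.997 and 1.16 CPM in NC-7d and 3.46 and 3.26 CPM in KD-Nap1l2-7d. The 4 groups were ordered NC-7d, NC and then both shRNA-labelled groups, which overlapped. The log2 fold change was 0.79 before induction (SE 0.27, adjusted p = 0.264, edgeR) and 1.63 after it (SE 0.29, adjusted p = 0.443, edgeR). The libraries held only 17 to 68 counts of *Serping1*. *Cd55* (chromosome 1, 130429798 to 130465009, minus strand) stayed between 2.47 and 3.54 CPM in all 8 libraries. Its log2 fold change was 0.12 before induction (SE 0.26, adjusted p = 0.877) and -0.21 after it (SE 0.26, adjusted p = 0.910), both from edgeR and both smaller than their error.

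After 7 days, 4 of the 8 tested members separated KD-Nap1l2-7d from NC-7d without overlap, *Cfb* and *Serping1* higher and *C1ra* and *C1s1* lower, where 42.1% of all genes did. edgeR's quasi-likelihood test called 0 of the 8 and 0% of all genes, with 1 member and 1057 of all genes at an unadjusted p-value under 0.05. DESeq2 called 0 members and 79 of all genes, and limma on log2(FPKM + 1) called 0 of both. The median log2 fold change of the 8 was -0.12, or -0.21 without *C2*, against -0.01 over all genes. None of the 21 other complement genes was called in this comparison by edgeR, DESeq2 or limma, and at an unadjusted p-value under 0.05 there were 0 in edgeR. Without overlap, 8 of the 21 were lower and 0 higher, where 2836 of all genes were lower and 2831 higher. The median log2 fold change of the 21 was -0.20.

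**Figure D3:**
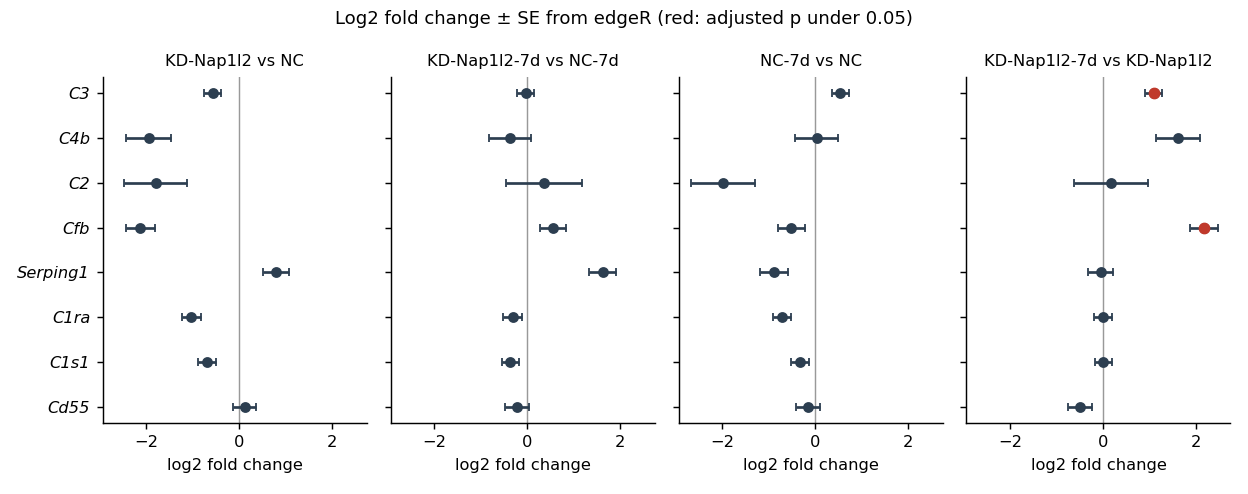
Log2 fold change (points) and its SE (bars) of the 8 tested genes in the 4 comparisons, from edgeR, with calls in red. In KD-Nap1l2 vs NC, 6 points lie left of 0, among them *C2*, whose side was fixed by the filter. In KD-Nap1l2-7d vs KD-Nap1l2 the called genes are *C3* at 1.09 and *Cfb* at 2.18.

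During induction of NC cells, *C3* was higher and *C2*, *Serping1*, *C1ra* and *C1s1* were lower without overlap, 5 of the 8 members beside 57.8% of all genes. edgeR's quasi-likelihood test called 0 of the 8 and 8.21% of all genes, with 4 members and 3300 of all genes at an unadjusted p-value under 0.05. DESeq2 called *C3* and *C1ra* and 1555 of all genes, and limma on log2(FPKM + 1) called 0 members, 3 of them at an unadjusted p-value under 0.05, and 961 of all genes. The median log2 fold change of the 8 was -0.41, against -0.004 over all genes. Here too the lower *C2* was fixed by the filter, and without it 1 of 7 was higher and 3 were lower without overlap, the median was -0.32 and 3 had an unadjusted p under 0.05 in edgeR. *C3* had a log2 fold change of 0.55 (SE 0.19, adjusted p = 0.121, edgeR), *C1ra* one of -0.72 (SE 0.20, adjusted p = 0.0671) and *Serping1* one of -0.89 (adjusted p = 0.116), all from edgeR. *C4b* changed by 0.04 on the log2 scale (adjusted p = 0.973, edgeR), and this value turned to -0.48 without NC replicate 1 and to -0.43 without NC-7d replicate 1. *Cfb* had a log2 fold change of -0.51 (adjusted p = 0.321, edgeR) and *Cd55* one of -0.16, both with overlapping groups. The other values were -0.32 for *C1s1* (adjusted p = 0.345, edgeR) and -1.99 for *C2*. Of the 21 other complement genes, 3 were called by edgeR and all fell, with log2 fold changes of -0.77 for *C1rb* (adjusted p = 0.0340), -1.29 for *C8g* (adjusted p = 0.0351) and -3.32 for *Colec10*, a collectin that starts the lectin pathway (adjusted p = 0.0135). None of the 3 was called in a fit of only the libraries compared or without NC replicate 1, and only *Colec10* was without NC-7d replicate 1 or without either KD-Nap1l2-7d replicate.

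In the cells labelled KD-Nap1l2, induction went with higher *C3*, *C4b* and *Cfb* and lower *Cd55* without overlap, 4 of the 8 members beside 61.4% of all genes. edgeR called 2 of the 8, *C3* and *Cfb*, and both rose, where 14.2% of all genes were called. DESeq2 called 3 members and 2389 of all genes, and limma on log2(FPKM + 1) called 2 members and 1589 of all genes. The median log2 fold change of the 8 was 0.10, or 0.01 without *C2*, against -0.007 over all genes. *Cfb* rose from the 3.32 and 2.68 CPM of KD-Nap1l2 to the 13.3 and 14.0 CPM of KD-Nap1l2-7d. Its log2 fold change was 2.18 (SE 0.31, adjusted p = 0.00531, edgeR), and it was called under all 16 alternatives, with adjusted p-values up to 0.0455. *C3* rose with a log2 fold change of 1.09 (SE 0.19, adjusted p = 0.0110, edgeR), but without KD-Nap1l2-7d replicate 1 it was 0.92 with an adjusted p of 0.0963, the highest over the alternatives, whose lowest was 2.38e-07. *C4b* had a log2 fold change of 1.62 (SE 0.48, adjusted p = 0.0596, edgeR) and ran from 0.000938 to 0.218 in adjusted p over the alternatives. *C1ra* and *C1s1*, in contrast, had log2 fold changes of 0.00 and 0.01 with SE of 0.20 and 0.19. *Serping1* had one of -0.04, *C2* one of 0.18 and *Cd55* one of -0.49 (adjusted p = 0.243, edgeR). Over the alternatives that left no library out, the adjusted p of *Cd55* ran from 0.0389 to 0.467. Among the other complement genes that edgeR called, *Cr1l* rose by 0.50 (adjusted p = 0.0488) and *Colec10* fell by 5.31 on the log2 scale (adjusted p = 0.00232). *Colec10* was also called without either KD-Nap1l2-7d replicate, and *Cr1l* was not. *Cr1l* was called under 3 of 16 alternatives, each with 1 library left out, and under 0 of the 8 that left no library out, where its adjusted p ran from 0.0503 to 0.127.

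*Colec10* was at 37.5 and 18.6 CPM in NC, 103 and 88.1 CPM in KD-Nap1l2, 0.997 and 4.52 CPM in NC-7d and 2.75 and 2.06 CPM in KD-Nap1l2-7d. Its KD-Nap1l2 libraries were the highest of the 8, where those of *Cfb*, *C4b* and *C3* were the lowest, and it was low in all libraries after induction. Against NC, the log2 fold change of *Colec10* in KD-Nap1l2 was 1.77 (SE 0.48, adjusted p = 0.175, edgeR), so it was not called there.

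The difference between the induction responses (KD-Nap1l2 minus NC) was tested directly. For *Cfb* it was 2.69 on the log2 scale (SE 0.42, adjusted p = 0.343, edgeR). DESeq2 gave an adjusted p of 3.11e-05, the lowest of the alternatives, which reached 0.889. For *C4b* the difference was 1.59 and for *C3* 0.54, *Serping1* had 0.84, *C1ra* 0.72, *C1s1* 0.33 and *Cd55* -0.33. That of *C2* was 2.17 (SE 1.07). It contains the NC counts through which alone *C2* passed the filter, so a positive value was built in. edgeR's quasi-likelihood test called 0 of the 8 members and 0% of all genes, with 3 members and 948 of all genes at an unadjusted p-value under 0.05. DESeq2 called 1 member, *Cfb*, and 98 of all genes, and limma called 0 of both. Every library enters 3 of these 5 comparisons, so their values are not independent of each other.

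Across the 8 libraries, 2 pairs of members had the highest Pearson r on the log2 CPM scale. *C4b* and *Cfb* had an r of 0.90, and *C1ra* and *C1s1* one of 0.89. *C3* had an r of 0.80 with *C4b*, 0.77 with *Cfb*, -0.00 with *C1ra* and -0.81 with *Cd55*. *C2*, at few counts, had an r of 0.799 with *C1s1* and 0.765 with *C1ra*. It passed the filter only through NC, where *C1s1* and *C1ra* were highest too, so a positive r with them was partly built in. These are descriptions over 8 libraries of 4 groups, which share group and depth. The 5 genes outside the complement lists whose pattern was most like that of *C3* were *Ifi207* (r = 0.98), *Fam107a* (r = 0.98), *4930402H24Rik*, *Cybb* and *Pcyt1a* (r = 0.98 each, n = 8 libraries). *Ifi207*, an interferon-inducible gene, averaged 126 CPM in NC, 17.1 CPM in KD-Nap1l2, 804 CPM in NC-7d and 749 CPM in KD-Nap1l2-7d. *Cybb*, the catalytic subunit of the phagocyte NADPH oxidase, averaged 5.38, 0.359, 33.8 and 33.6 CPM in the same order.

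Among 14 transcription factors listed as possible regulators of complement genes, *Irf7* and *Irf1* are given here, picked after their values were seen. *Irf7*, a factor that raises type I interferon genes, was at 147 and 262 CPM in NC, 58.3 and 24.7 CPM in KD-Nap1l2, 219 and 51.8 CPM in NC-7d and 124 and 195 CPM in KD-Nap1l2-7d. Within groups too, the library with more *Irf7* had more *C4b* in all 4 groups, and more *Cfb* in all 4. *Irf1* was at 179 and 211 CPM in NC, at 77.0 and 78.6 CPM in KD-Nap1l2 and between 77.5 and 121 CPM after induction. It was lower than in NC in all libraries of the other 3 groups. The library with more *Irf1* had more *C4b* and *Cfb* in NC, NC-7d and KD-Nap1l2-7d. In KD-Nap1l2 it had less of both, but there *Irf1* was nearly equal, at 77.0 against 78.6 CPM. *C3* kept the order of *Irf7* in NC and KD-Nap1l2 but not after induction, where the library with less *Irf7* had more *C3* in both groups. The part of these factors in the complement values was not tested.

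**Figure D4:**
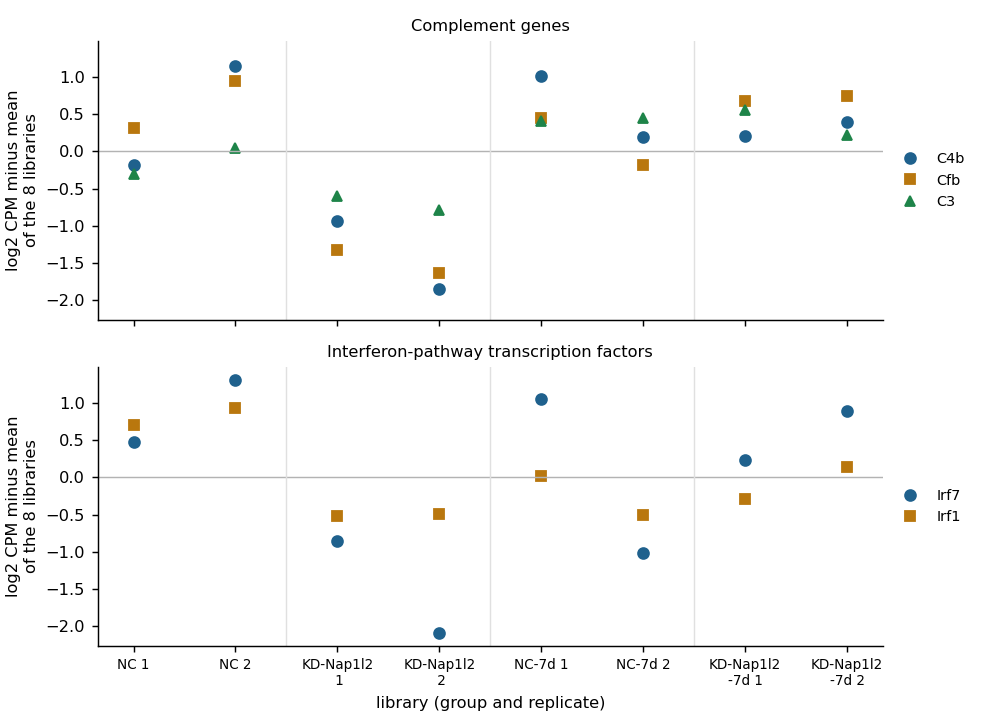
Log2 CPM of *C4b*, *Cfb* and *C3* (top) and of *Irf7* and *Irf1* (bottom) in each of the 8 libraries, each gene minus its mean over the libraries. KD-Nap1l2 replicate 2 is lowest for *C4b*, *Cfb*, *C3* and *Irf7*, with *Irf7* at 24.7 CPM, and NC-7d replicate 1 lies above replicate 2 for *C4b*, *Cfb*, *Irf7* and *Irf1*.

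The libraries also differed in ways that touch these genes. Between the libraries of a group, 2.54% (KD-Nap1l2-7d) to 7.35% (NC-7d) of tested genes were more than 2-fold apart, and *C4b* was among them in NC with 2.5-fold and *C2* in KD-Nap1l2 with 3.19-fold and in KD-Nap1l2-7d with 2.08-fold. Summed adipocyte markers were at 31.0 to 57.9 FPKM before induction and at 174 to 228 FPKM after it, through *Fabp4* and *Pparg*, while *Adipoq*, *Lep*, *Plin1* and *Cidec* stayed at or under 18 counts. *Lpl*, the remaining marker, was at 20.7 and 17.6 CPM in NC and 17.4 and 24.5 CPM in NC-7d, but at 38.3 and 51.0 CPM in KD-Nap1l2 and 10.4 and 20.3 CPM in KD-Nap1l2-7d. The 6 osteoblast markers did not rise in sum, at 16.85 to 28.49 FPKM before induction and 16.91 to 21.36 FPKM after it. Of these, *Alpl*, *Ibsp* and *Sp7* never passed 10 counts. *Cfd*, also known as adipsin, stayed at 8 counts or fewer, and *C3* was higher in all libraries with the larger adipocyte sums. The part of this in *C3* was not tested.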

How the data were processed

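RNA-seq of 8 libraries (4 groups of 2) was used, grouped by their labels. The authors deposited estimated counts and FPKM of genes and transcripts in every library; per the labels, BWA, Bowtie2 and RSEM were used with GRCm38.p6, without versions or roles. The deposited tables of the authors' own comparisons hold log2 fold changes, p-values and q-values, and were not used. All columns of single samples were matched to a library (0 were not).

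Here the estimated counts of 18605 genes were rounded, filterByExpr kept 13470, and 1 model over the 8 libraries was fitted with edgeR 4.0.16 in R 4.3.3 (TMM scaling, quasi-likelihood test, Benjamini-Hochberg adjustment over all genes tested, calls under 0.05). CPM were scaled by TMM. FPKM were used to compare genes. Alternatives were DESeq2 1.42.0, limma 3.58.1 on log2(FPKM + 1) and log2(FPKM + 0.1), RLE size factors, no filter, at least 10 counts in every library, only the libraries compared, a replicate block, and leaving out each library. The scripts were tested on simulated data. Limits from counts of 0 (3 counts) cover counting error only.

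The members and the gene lists were chosen with earlier results of these data known. All 9 members are named. Of the other complement genes, those called in any comparison and the 8 with the highest mean FPKM are named, except for an item that is not reported here, and *C1qa*, *C1qb*, *C1qc* and *Hc* beside them for their low counts. The 5 genes with the highest r with *C3* had a mean of at least 50 normalized counts. Motifs were searched with Python 3.11.15, and figures were drawn with matplotlib 3.10.9.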

Additional observations from a re-analysis of the deposited data

How the results depend on the processing

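Over 16 alternatives, the 40 log2 fold changes of the 8 tested members (5 comparisons) gave 627 values, of which 583 kept direction and side of the threshold, 22 newly passed it, 1 no longer passed it (*C3* in KD-Nap1l2-7d vs KD-Nap1l2) and 21, from 9 of the 40, changed sign. Most limits come from 2 libraries a group, so that 1 library decides small values; the cause of the changes below was not tested.

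The number of members called in KD-Nap1l2 vs NC was 0, 4 with DESeq2, 2 without a filter (*C1ra* and *Cfb*) and 0 to 1 when each library was left out, and that of the other complement genes was 0, 1 with DESeq2 and without a filter, and 0 to 2. In NC-7d vs NC, members called were 0, 2 with DESeq2 and 1 with limma on log2(FPKM + 0.1) (*Serping1*). Other complement genes called there were 3, 5 with DESeq2 and without a filter, 0 with only the libraries compared and 0 to 3 with a library left out. In KD-Nap1l2-7d vs KD-Nap1l2 they were 2 members, 3 with DESeq2 and 1 to 3 with a library left out, and 3 others, 3 with DESeq2 and 1 to 4. *Cd55* also passed in that comparison under an alternative that left no library out, where its lowest adjusted p was 0.0389. For the difference between the induction responses, DESeq2 called 1 member and 1 other gene against 0 and 0. Over all genes, DESeq2 called 460 in KD-Nap1l2 vs NC, 1555 in NC-7d vs NC, 2389 in KD-Nap1l2-7d vs KD-Nap1l2 and 98 for the difference. Calls over all genes are given here only for the main edgeR fit, DESeq2 and limma on log2(FPKM + 1), so the other counts of members have no share beside them.

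Same-numbered libraries of different groups did not deviate together (r from -0.06 to 0.10 over the 6 pairs of groups). No shared effect of the number was seen, but this cannot show whether same-numbered libraries were prepared together. With a replicate block, the members called in NC-7d vs NC went from 0 to 1 (*C1ra*, log2 fold change -0.70), and the *C1ra* value in KD-Nap1l2-7d vs KD-Nap1l2 was -0.0008.

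That *C1ra* value, 0.0011, was also below 0 with DESeq2 and with RLE size factors (-0.0036 in both), without a filter (-0.0020), with at least 10 counts in every library (-0.0145) and with limma (-0.0069 and -0.0070), and ran from -0.18 to 0.16 with a library left out. That of *C1s1* was -0.0024 with at least 10 counts in every library and ran from -0.24 to 0.31. With a library left out, *C2* ran from -0.43 to 1.19 and *Serping1* from -0.21 to 0.14 there. In KD-Nap1l2-7d vs NC-7d, *C3* ran from -0.20 to 0.12, *C4b* from -0.72 to 0.11 and *C2* from -0.24 to 0.80. In NC-7d vs NC, *C4b* ran from -0.48 to 0.84 and *Cd55* from -0.34 to 0.0091.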
